A study of Mus musculus with 24 samples.

Results

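The 10 genes described here encode proteins of the synaptic vesicle: the SV2 family (Sv2a, Sv2b and Sv2c), the synapsins (Syn1, Syn2 and Syn3), synaptophysin (Syp), synaptotagmin 1 (Syt1) and the vesicular glutamate transporters Slc17a7 (VGLUT1) and Slc17a6 (VGLUT2). They were taken by symbol out of 53379 genes in an mRNAseq count table, with earlier results of these data known. The study had already listed Sv2c as upregulated in both cell types. All 10 were among the 37598 genes that passed the filter on low counts. Right hippocampi of male C57/BL6N mice were taken 24 hours after status epilepticus evoked by an injection of kainic acid into the deep cortex beside the hippocampus (KA) or after a sham operation with saline (SH). KA mice without convulsive seizures had been excluded, and both groups had the same anaesthesia and analgesia. The mice came at 8 weeks of age and were acclimatized for 4 weeks. Hippocampi of 8 mice per treatment were combined into 3 pools, of 4 mice in replicate 1 and of 2 mice in replicates 2 and 3, and nuclei of each pool were sorted by NeuN into NeuN+ (neurons) and NeuN- (glia), which gave 12 libraries. The labels name no allele or transgene, and what was counted is RNA of nuclei.

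Synaptic vesicles store transmitter at the nerve terminal, fuse with its membrane when calcium enters, and are then retrieved and refilled. SV2 proteins are glycoproteins of the vesicle membrane. SV2A, found at most synapses, binds the antiseizure drug levetiracetam, SV2B accompanies it at many forebrain glutamatergic synapses, and SV2C is best known from the basal ganglia. Synapsins tether vesicles to each other and to the cytoskeleton, synaptophysin is an abundant membrane protein that binds synaptobrevin, synaptotagmin 1 is the calcium sensor of fast release, and the vesicular glutamate transporters load glutamate. In the hippocampus VGLUT1 marks the principal cells, while VGLUT2 marks mainly input from elsewhere.

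Total counts ranged from 7769400 to 40364768 per library. In 10 libraries about 1 ng RNA was amplified by 10 PCR cycles. The other 2, replicate 1 of SH glia and replicate 2 of KA glia, started from about 0.05 ng with 15 cycles. The study sequenced its mRNAseq libraries on 2 platforms, with single or paired reads, and does not name the platform of each library. In each group the replicate 3 library held the fewest genes with a count (36165 to 42160, against 40660 to 47748 in replicates 1 and 2). Of 15 neuronal marker genes, 14 were higher in neurons than in glia, and all 10 astrocytic, 10 microglial, 8 oligodendrocytic and 5 oligodendrocyte precursor (OPC) markers were higher in glia. The neuronal markers were not at 0 in NeuN- libraries: their median level there was 12.9% to 34.1% of the mean NeuN+ level of the same treatment. Expression is given below as read counts scaled to library size (CPM) after TMM normalisation, and per kb of annotated exon wherever genes are compared with each other. A gene was called at an FDR below 0.25, the threshold of the study, in the quasi-likelihood test of edgeR. KA and SH libraries with the same replicate number deviated together, so values from a fit with the replicate as a block are printed where they change a call.

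Sv2c was the only member called between KA and SH, and it was called in both cell types. Sv2c (ENSMUSG00000051111, GRCm38 chromosome 13 from 95954594 to 96132577, minus strand) had 15.1, 20.4 and 32.1 CPM in the SH neurons and 82.1, 158.5 and 149.1 CPM in the KA neurons of replicates 1, 2 and 3. Every KA library lay above every SH library, as for 5.27% of all genes in neurons. In glia, Sv2c had 2.81, 10.7 and 4.39 CPM in SH and 23.8, 34.7 and 87.4 CPM in KA, again without overlap (KA above SH for 3.61% of all genes). These CPM rest on 249 to 786 counts in SH neurons, 961 to 4567 in KA neurons, 35 to 220 in SH glia and 274 to 2122 in KA glia. Since these are bulk samples, fewer cells of a type and less RNA per cell cannot be told apart, nor can more cells and more RNA.

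**Figure D1:**
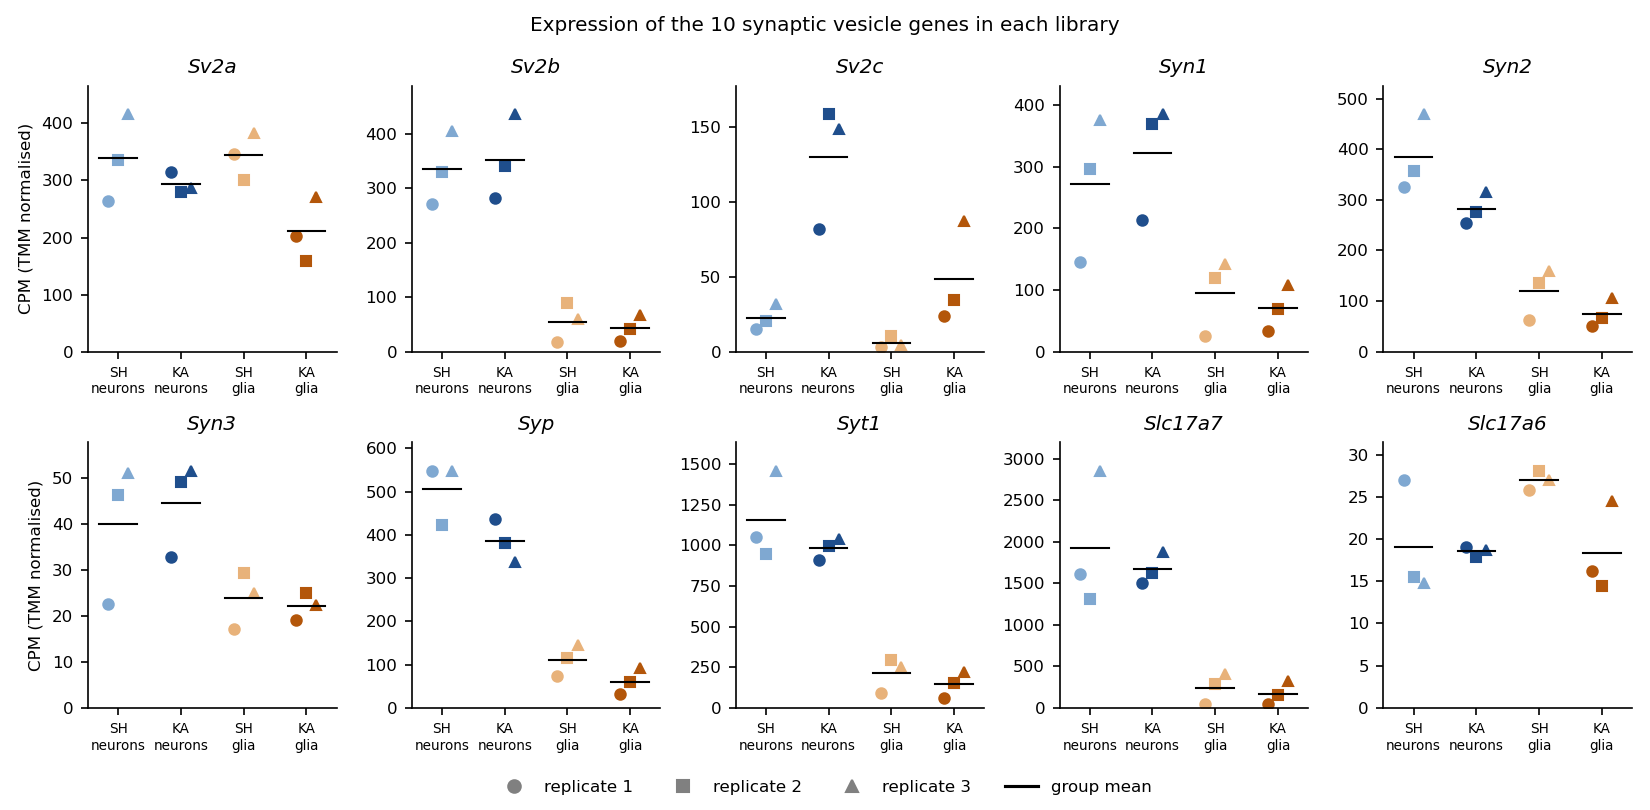
CPM (vertical axis, linear, from 0) of each of the 10 genes in the 12 libraries, by group; symbols mark the replicate and lines the mean of 3 pools. Sv2c is the gene whose KA libraries lie above its SH libraries in both cell types (82.1 to 158.5 against 15.1 to 32.1 CPM in neurons). Sv2a and Slc17a6 overlap between neurons and glia over both treatments. Within KA, Sv2a was higher in neurons (280.6 to 315.1 against 158.8 to 271.6 CPM).

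The logFC of Sv2c was 2.53 in neurons (standard error 0.55, 95% interval 1.26 to 3.79, n = 3 pools per group, edgeR FDR 0.142), a 5.76-fold difference, and 3.02 in glia (standard error 0.56, 95% interval 1.72 to 4.32, edgeR FDR 0.0438), an 8.11-fold difference. With the replicate block the FDR was 0.000606 and 0.000319. By p value Sv2c held place 71 in neurons and place 48 in glia among the 37598 genes. Of all genes tested, 0.34% were called in neurons (0.279% up, 0.0612% down) and 0.747% in glia (0.442% up, 0.306% down), against 1 of the 10 members in each, up in both. Within pairs of the same replicate number, Sv2c was 5.45, 7.75 and 4.65 times as high in KA as in SH neurons, and 8.46, 3.24 and 19.9 times as high in KA as in SH glia. For a single gene, 3 against 3 libraries cannot give an exact two-sided permutation p below 0.1, and Sv2c reached 0.1 in both cell types.

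The call in neurons depended on single libraries, although the logFC stayed between 2.31 and 2.87. The FDR was 0.79 without SH replicate 1, 0.46 without SH replicate 2, 0.301 without SH replicate 3, 0.498 without KA replicate 2 and 0.623 without KA replicate 3, and 0.0969 without KA replicate 1. In glia the call held without each of the 6 libraries in turn (FDR 0.0175 to 0.224). Without both low-input libraries the glial logFC was 2.92 at an FDR of 0.331. Without all replicate 3 libraries it was 2.09 at 0.632 in glia and 2.76 at 0.462 in neurons. With the block, Sv2c was called in both cell types without any 1 of the 3 pairs, with an FDR of 0.0299 in neurons and 0.088 in glia without pair 3.

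No difference between the cell types in the effect of KA on Sv2c passed the test. The logFC in neurons minus that in glia was -0.49 (standard error 0.74, 95% interval -2.19 to 1.20, n = 3 pools per group, edgeR FDR 1.00), so that a difference of up to about 2 on the log2 scale lies within its interval. None of the 37598 genes passed this test at an FDR of 0.25 (0%), 502 (1.34%) had an unadjusted p below 0.05, and with the block 177 genes (0.471%) passed, none of them a member. The sign for Sv2c rested on KA glia replicate 3, the highest glial library at 87.4 CPM: without it the difference was 0.25. With the pool as a block and all libraries kept, the difference was -0.47 with a smaller standard error of 0.48.

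Within the SV2 family, Sv2c was a minor form in SH mice and less so in KA mice. Compared per kb of exon, Sv2c made up 1.71%, 1.85% and 2.34% of SV2 expression in the SH neurons, and 7.69%, 13.9% and 11.9% in the KA neurons. In glia it made up 0.376%, 1.44% and 0.5% in SH and 5.06%, 8.35% and 11.9% in KA. The shares did not overlap between treatments in either cell type. The means were 1.97% ± 0.33 in SH neurons, 11.2% ± 3.17 in KA neurons, 0.772% ± 0.58 in SH glia and 8.44% ± 3.42 in KA glia (SD, n = 3). With the longest transcript as the length, the mean shares were 1.71%, 9.68%, 0.736% and 8.08%.

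**Figure D2:**
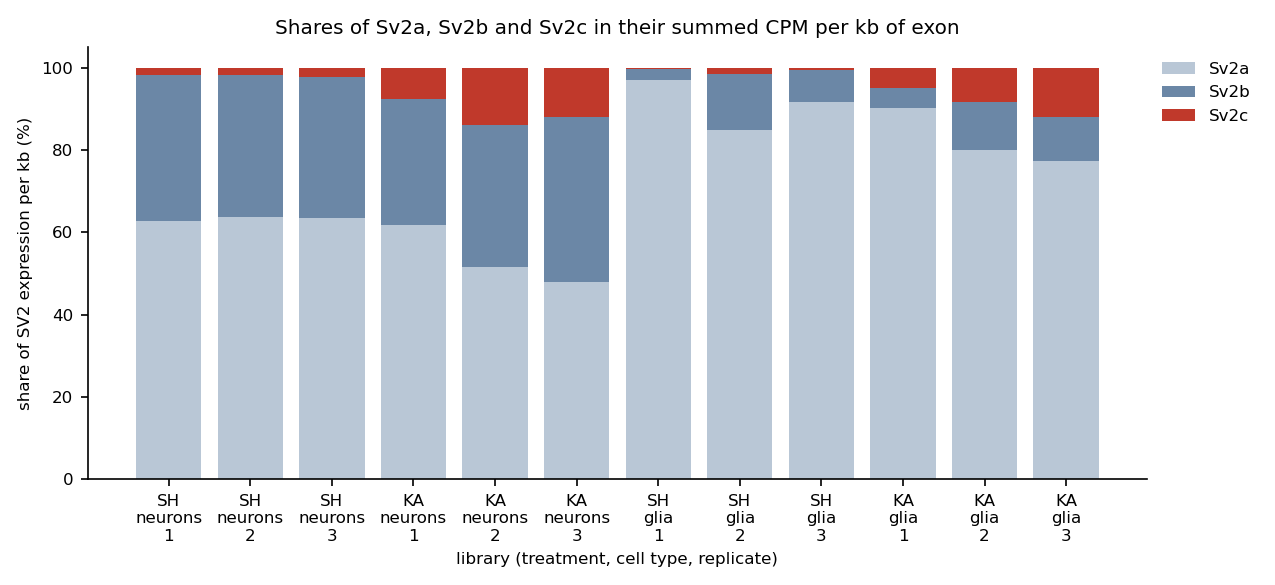
Shares (vertical axis, percent) of Sv2a, Sv2b and Sv2c in their summed CPM per kb of exon, one bar per library. The Sv2c segment takes 1.71% to 2.34% in SH neurons and 7.69% to 13.9% in KA neurons, and Sv2b is a small part in glia, where Sv2a takes 77.4% to 97%.

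Sv2a (ENSMUSG00000038486, chromosome 3 from 96181151 to 96195521, plus strand) and Sv2b (ENSMUSG00000053025, chromosome 7 from 75114894 to 75309262, minus strand) were not called. Sv2a had 265, 337 and 416 CPM in SH neurons and 315, 281 and 287 CPM in KA neurons. Sv2b had 270, 330 and 405 CPM in SH neurons and 282, 341 and 436 CPM in KA neurons. The groups overlapped for both genes, with a logFC of -0.20 (standard error 0.36, 95% interval -1.03 to 0.63) for Sv2a and 0.07 (standard error 0.53, 95% interval -1.14 to 1.29) for Sv2b. These intervals leave room for changes of about 1 on the log2 scale, so that the absence of a call does not show that the levels were equal.

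In glia the KA libraries of Sv2a lay below the SH libraries, with 203, 159 and 272 CPM against 347, 302 and 384 CPM. The logFC was -0.71 (standard error 0.36, edgeR FDR 1.00), which was not called. With the replicate block it was -0.73 and was called (FDR 0.12). That call was lost without pair 3 (FDR 0.451). KA and SH libraries did not overlap for 6.61% of all genes in glia, and for 3 of the 10 members: Sv2c above, Sv2a and Slc17a6 below (3% of all genes lay below). Beside this, the summed OPC markers in glia were 849 to 1564 CPM in SH and 378 to 609 CPM in KA, and the summed oligodendrocytic markers 14283 to 29772 CPM in SH and 7488 to 14034 CPM in KA; 1 of 5 OPC and 0 of 8 oligodendrocytic markers were called down, and 4 and 5 with the block. The summed astrocytic markers were 2024 to 2942 CPM in SH and 1259 to 2405 CPM in KA glia. Of these 10, 1 was called down, and with the block 6 down and 1 up. Over all genes in glia 0.306% were called down, and with the block 4.17% down and 3.47% up. No defining marker of these lists was at 0. Their part in the result for Sv2a was not tested. Sv2b in glia, at 16.9, 88.3 and 60.5 CPM in SH and 19, 41.7 and 67.7 CPM in KA, overlapped (logFC -0.37, standard error 0.53).

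The upstream sequence of the SV2 genes is shown because only Sv2c of the family was called, and that of Syn1 because it was the only member start site with a full cyclic AMP response element (CRE). RefSeq start sites were found for 9 of the 10 members (15 sites; Syn3 was not matched), and the windows cover up to 250 bases before the start on GRCm38.p6, written 5′ to 3′ on the strand of the gene and without bases annotated as exon in GENCODE M21. Capitals mark matches to TGACGTCA (the CRE), to its shorter form TGACG, to TGANTCA (the AP-1 site, bound by Fos and Jun) or to GCGNGGGCG (the EGR site), searched on both strands; every CRE also holds the shorter form.
Sv2c, chr13:96132578-96132827, minus strand: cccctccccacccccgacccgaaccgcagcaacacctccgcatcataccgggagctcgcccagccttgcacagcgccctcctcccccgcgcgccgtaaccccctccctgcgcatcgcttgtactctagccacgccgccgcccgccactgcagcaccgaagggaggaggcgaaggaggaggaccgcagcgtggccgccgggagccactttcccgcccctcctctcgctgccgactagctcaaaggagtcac
Sv2a, chr3:96180977-96181150, plus strand: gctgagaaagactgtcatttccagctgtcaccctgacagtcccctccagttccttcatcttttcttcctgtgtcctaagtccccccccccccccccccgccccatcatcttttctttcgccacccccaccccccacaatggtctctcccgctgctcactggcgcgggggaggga
Sv2b, chr7:75309263-75309512, minus strand: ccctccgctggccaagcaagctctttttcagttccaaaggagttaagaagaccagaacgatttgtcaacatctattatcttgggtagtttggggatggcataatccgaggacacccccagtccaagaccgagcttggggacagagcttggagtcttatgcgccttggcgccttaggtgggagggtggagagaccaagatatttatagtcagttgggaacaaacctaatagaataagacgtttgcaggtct
Syn1, chrX:20921005-20921168, minus strand: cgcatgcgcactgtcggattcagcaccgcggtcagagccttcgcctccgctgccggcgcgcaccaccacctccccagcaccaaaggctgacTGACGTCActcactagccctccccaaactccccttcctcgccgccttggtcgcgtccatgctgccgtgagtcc

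No match to any of these letters fell in the Sv2a, Sv2b or Sv2c windows, which says nothing of elements elsewhere or of the factors. Syn1 held a CRE starting 159 bases before its start, Syn2 an EGR site and Slc17a6 a TGACG at 1 of its 2 start sites. Among 32851 RefSeq windows of the same length, 1.55% held the CRE, 17.8% TGACG, 6.75% the AP-1 site and 4.7% the EGR site. By composition the Sv2c window was rich in G and C, at 70.8%, above 91.7% of all windows (median 52.4%), with 26 CG dinucleotides against a median of 6. The windows of Sv2a (66%, 13 CG) and Sv2b (48.8%, 7 CG) held fewer; composition and motifs were counted over all 250 bases. These are descriptions of the sequence and were not tied to the expression values.

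The synapsins were not called in either cell type. Syn1 (ENSMUSG00000037217, chromosome X from 20860511 to 20921004, minus strand) had 145, 296 and 375 CPM in SH neurons and 213, 369 and 385 CPM in KA neurons. The KA value was the higher in each of the 3 pairs, but the spread between replicates exceeded the difference (logFC 0.24, standard error 0.57, edgeR FDR 1.00). Syn2 (ENSMUSG00000009394, chromosome 6 from 115134902 to 115282006, plus strand) had 326, 357 and 469 CPM in SH and 254, 276 and 316 CPM in KA neurons. For Syn2 every KA library lay below every SH library, as for 4.45% of all genes (9.72% did not overlap in either direction), and it was not called (logFC -0.45, standard error 0.41, 95% interval -1.39 to 0.50; block FDR 0.709). Syn3 (ENSMUSG00000059602, chromosome 10 from 86055125 to 86498896, minus strand) was low, at 22.5 to 51.2 CPM in SH and 32.8 to 51.7 CPM in KA neurons. Its exons share 1733 bases (14.1%) with Timp3 on the opposite strand, and counting ignored strand and left out reads on exons of more than 1 gene.

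In glia, Syn2 had 62, 135 and 160 CPM in SH and 51, 66.5 and 107 CPM in KA, lower in KA in 3 of 3 pairs but overlapping (logFC -0.67, standard error 0.41, edgeR FDR 1.00). With the replicate block Syn2 was called (logFC -0.63, FDR 0.197), and the call was lost without pair 2 (0.539) or pair 3 (0.606). Syn1 in glia had 25.2, 119 and 142 CPM in SH and 33.5, 69.3 and 108 CPM in KA, and Syn3 lay between 17.1 and 29.5 CPM in all 6 libraries, so that neither separated the treatments. Within the family, per kb of exon, Syn1 took 47.7% to 62.2% of synapsin expression in SH neurons and 62.5% to 72.1% in KA neurons, without overlap, and Syn2 35.2% to 50.3% and 25.3% to 34.9%. With the longest transcript as the length, these shares of Syn1 were 33.2% to 47% and 47.4% to 58%.

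Syp and Syt1 had lower means in KA than in SH in both cell types, and neither was called. Syp (ENSMUSG00000031144, chromosome X from 7638471 to 7653256, plus strand) had 547, 422 and 548 CPM in SH neurons and 438, 382 and 337 CPM in KA neurons, lower in KA in 3 of 3 pairs (logFC -0.39, standard error 0.42, edgeR FDR 1.00). In glia Syp had 72.6, 116 and 145 CPM in SH and 31, 59.3 and 91.6 CPM in KA, also lower in 3 of 3 pairs although the groups overlapped. The logFC there was -0.87 (standard error 0.42, edgeR FDR 1.00), and with the block -0.95, which was called at an FDR of 0.0293. Without pair 3 its FDR was 0.261, above the threshold. The exons of Syp share 875 bases (16.8%) with the antisense gene Gm14703. Syt1 (ENSMUSG00000035864, chromosome 10 from 108497650 to 109010982, minus strand) had 1051, 948 and 1458 CPM in SH neurons and 911, 996 and 1040 CPM in KA neurons. In glia Syt1 had 92.5, 297 and 249 CPM in SH and 62.5, 152 and 223 CPM in KA. Its groups overlapped in both cell types, with a logFC of -0.23 (standard error 0.51) in neurons and -0.54 (standard error 0.51, block FDR 0.287) in glia.

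The vesicular glutamate transporters were not called either. Slc17a7 (ENSMUSG00000070570, chromosome 7 from 45163949 to 45176142, plus strand) had 1614, 1316 and 2858 CPM in SH neurons and 1505, 1627 and 1884 CPM in KA neurons. SH neurons replicate 3 stood far above the other libraries for Slc17a7, and without it the logFC moved from -0.21 (standard error 0.72) to 0.19. In glia Slc17a7 ran from 42 to 403 CPM in SH and from 41.1 to 318 CPM in KA (logFC -0.53, standard error 0.72). Slc17a6 (ENSMUSG00000030500, chromosome 7 from 51622006 to 51671119, plus strand) had 26.9, 15.6 and 14.7 CPM in SH neurons and 19, 17.9 and 18.7 CPM in KA neurons, with overlap (logFC -0.04, standard error 0.33). In glia Slc17a6 had 25.8, 28.1 and 27 CPM in SH and 16.2, 14.4 and 24.5 CPM in KA, without overlap, and was not called (logFC -0.56, standard error 0.33, edgeR FDR 1.00; block FDR 0.399).

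**Figure D3:**
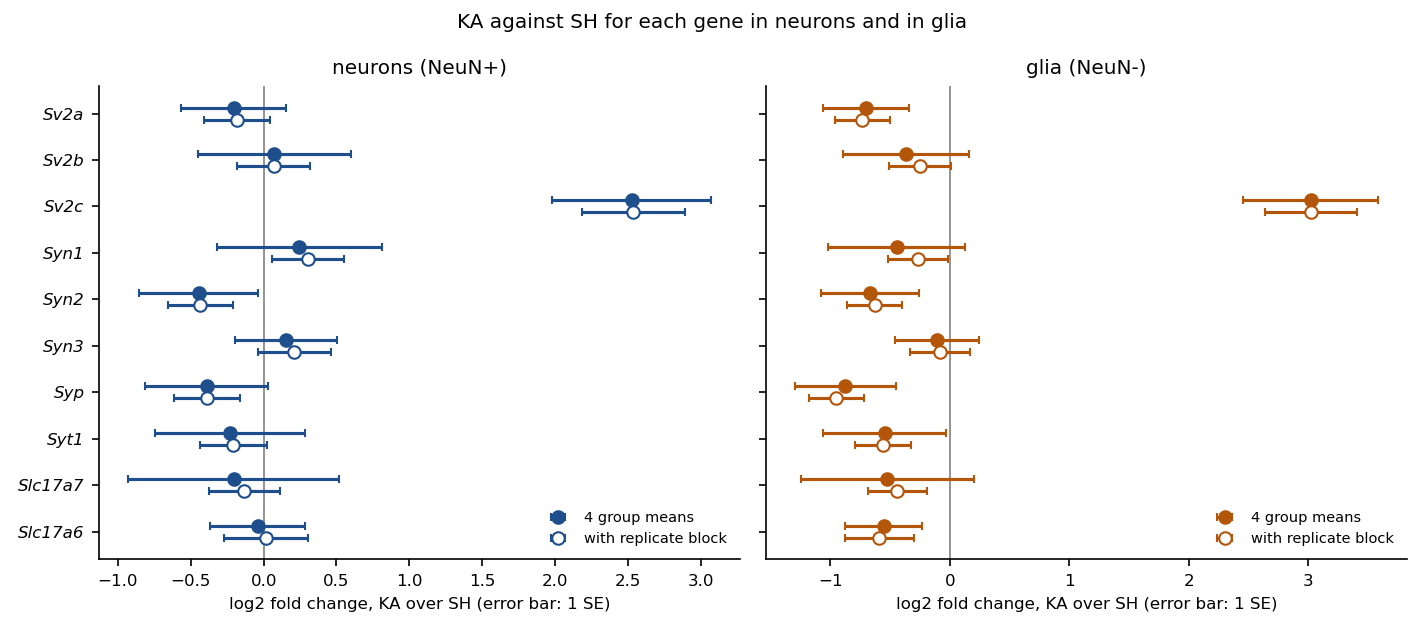
LogFC of KA over SH (horizontal axis, log2 scale) with 1 standard error for each gene in neurons and glia, from the fit of 4 group means (filled) and with the replicate block (open). Sv2c stands at 2.53 in neurons and 3.02 in glia; the other 9 genes lie between -0.45 and 0.24 in neurons and between -0.87 and -0.11 in glia.

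The median logFC of the 10 members, Sv2c included, was below 0 in both cell types. In neurons 4 of 10, Sv2c among them, had a positive logFC and the median was -0.12, beside 0.00 over all genes tested, of which 50% were positive. In glia Sv2c alone of the 10 was positive and the median was -0.54, beside 0.14 over all genes, of which 58.6% were positive. The block called 4 of 10 members in glia (Sv2c up, and Sv2a, Syn2 and Syp down) where it called 7.64% of all genes (3.47% up, 4.17% down), and 1 of 10 in neurons where it called 3.05% (1.94% up, 1.11% down). The 15 neuronal markers in the NeuN- libraries were set against the NeuN+ mean of the same treatment. Their median was 13.4%, 32.1% and 34.1% in SH replicates 1, 2 and 3. In KA it was 12.9%, 17.9% and 30.8%, the lower in each pair. Single markers ranged from 2.32% to 148%, so the median does not measure a share of neurons. With the mean of the neuronal list as a covariate in a fit of glia alone, Sv2c rose with a logFC of 3.57 (edgeR FDR 0.0268), Sv2a stood at -0.53, Syp at -0.45 and Syn2 at -0.13, and Sv2b, Syn1, Syn3, Syt1 and Slc17a7 turned positive, none of these 8 past the threshold. Slc17a6 stayed negative and was not called. Since the median of these markers was itself lower in KA in each pair, this fit of the glial libraries cannot separate them from the treatment. Their part in the values of the members was not tested.

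Most members were read mainly from NeuN+ nuclei, with Sv2a and Slc17a6 as the exceptions. In neurons against glia, over both treatments, 8 of 10 members were higher in neurons, where 29.5% of all genes were called and 18.6% were higher in neurons. The logFC was 3.14 for Slc17a7 (standard error 0.55, edgeR FDR 0.000491), 2.82 for Sv2b, 2.59 for Syt1, 2.42 for Syp, 1.85 for Syn1, 1.80 for Syn2, 1.66 for Sv2c and 0.87 for Syn3 (standard error 0.25, edgeR FDR 0.0193). Each of these 8 was higher in neurons than in glia of the same pool in 6 of 6 pools, the most that 6 pools can show (exact sign-flip p = 0.0312, two-sided). Libraries of the 2 cell types did not overlap for Sv2b, Syn1, Syn2, Syp, Syt1 and Slc17a7, with neurons above glia as for 7.6% of all genes (4.68% lay below, 12.3% in all). They overlapped for Sv2c and Syn3.

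For Sv2a the logFC of neurons over glia was 0.23 (standard error 0.25, 95% interval -0.36 to 0.82, edgeR FDR 0.657), and its sign turned when a low-input library was left out (-0.15 without that of SH glia, -0.02 without that of KA glia). For Slc17a6 it was -0.24 (standard error 0.23, 95% interval -0.77 to 0.29, edgeR FDR 0.594). This fit took no account of the pools shared by neurons and glia. With the pool as a block the logFC was 0.24 (standard error 0.17) for Sv2a and -0.25 (standard error 0.18) for Slc17a6, neither called. Without the low-input library of SH glia Slc17a6 was called higher in glia (logFC -0.64, edgeR FDR 0.0682), as it was when at least 10 counts were required in every library (logFC -0.52, edgeR FDR 0.0613). Relative to the NeuN+ mean of the same treatment, the NeuN- libraries held 89% to 113% of Sv2a in SH and 54% to 92.3% in KA, and 135% to 147% of Slc17a6 in SH and 77.6% to 132% in KA. These ratios exceeded those of at least 14 of the 15 neuronal markers in each NeuN- library. Slc17a7, in contrast, stood at 2.17% to 20.9% in SH and 2.46% to 19% in KA, below the neuronal median in each library. A list of 6 markers of thalamic neurons, which typically express Slc17a6, summed to 167 to 324 CPM in SH glia and 154 to 218 CPM in KA glia, and to 52.1 to 77.2 and 45.8 to 58.1 CPM in neurons. Prkcd (106.5 CPM) and Plekhg1 (100.9 CPM) made up most of the mean sum in SH glia, and the other 4 had means of 1.56 to 9.57 CPM there. Of the 6, 3 were called higher in glia (Prkcd, Slitrk6 and Plekhg1), Ramp3 was called higher in neurons, and 2 were not called. Over all genes, 10.9% were called higher in glia and 18.6% higher in neurons. The part of thalamic neurons in the level of Slc17a6 was not tested.

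Sv2c in glia was set beside the levels of the neuronal markers there. At their median ratio, the mean Sv2c level of SH neurons would give 3.01, 7.22 and 7.68 CPM in the SH glia libraries. There 2.81, 10.7 and 4.39 CPM were measured, the higher value in 1 of 3. In the KA glia libraries it would give 16.8, 23.2 and 40 CPM, where 23.8, 34.7 and 87.4 CPM were measured, the higher value in 3 of 3. The glial Sv2c level was 18.3%, 26.7% and 67.3% of the neuronal mean in KA, above 11, 12 and 14 of the 15 neuronal markers. In SH it was 12.5%, 47.5% and 19.5%, above 7, 13 and 3 of them. The neuronal markers themselves ranged from 2.32% to 148% across these libraries, and Sv2c lay within the range of the list in each KA library. The part of neuronal RNA in the glial level of Sv2c was not tested.

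**Figure D4:**
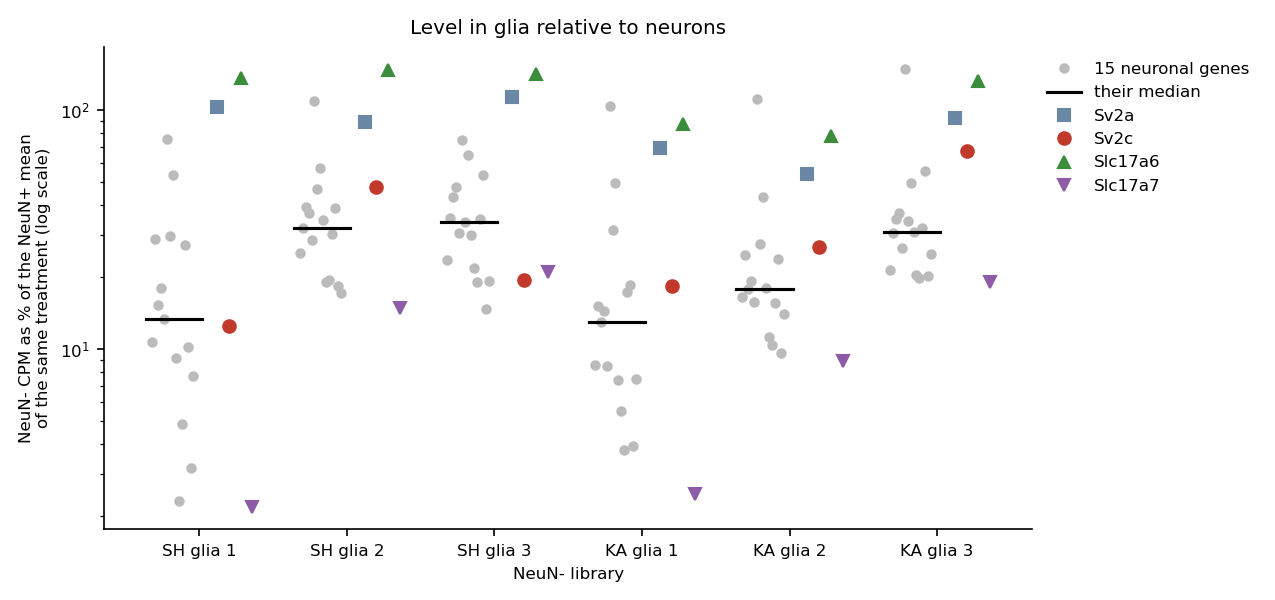
Level in each NeuN- library as a percentage of the NeuN+ mean of the same treatment (vertical axis, log scale) for the 15 neuronal markers (grey, with their median as a line) and 4 members. Sv2a and Slc17a6 lie above the median in all 6 libraries, Slc17a7 below it, and Sv2c above it in 3 of 3 KA and 1 of 3 SH libraries.

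Per kb of exon, Slc17a7 was the highest member in neurons, at 334 ± 102 CPM per kb (SD, n = 6 libraries), followed by Syt1 at 128 ± 23.8, Syn1 at 90.1 ± 30.1, Syp at 85.5 ± 16.6, Sv2a at 68.3 ± 11.8, Syn2 at 47.3 ± 10.8 and Sv2b at 41 ± 7.84. Far lower came Sv2c at 7.86 ± 6.67, Slc17a6 at 3.48 ± 0.8 and Syn3 at 3.44 ± 0.97. The neighbours Syn1 and Syp, Syn2 and Sv2b, Sv2c and Slc17a6, and Slc17a6 and Syn3 changed places in at least 2 of the 6 libraries, and the other neighbours kept their order in 6 of 6. In SH neurons Sv2c, at 1.55 to 3.31 CPM per kb, was below Slc17a6 in 2 of 3 libraries, and in KA neurons, at 8.46 to 16.3, above it in 3 of 3. In glia Sv2a led at 59.9 ± 18.4 CPM per kb, and of the 9 steps in the order only that from Syn2 (13.8 ± 6.29) to Sv2b (5.85 ± 3.38) held in 6 of 6 libraries. These levels and their order depend on the length used: the exons of Syn3 together span 12282 bases, and its longest transcript 4775. Per kb of the longest transcript, Syp stood above Syn1 in every neuronal library. Syn2 then stood above Sv2a in SH neurons replicate 1 (84.5 against 61.1 CPM per kb), but not in KA neurons replicate 1 (65.8 against 72.7).

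The genes whose pattern was most like that of a member were sought by Pearson's r of log2 CPM over the 12 libraries among 17257 protein-coding genes. The libraries share cell types, pools and treatments, the genes were chosen for these r, and no p is given. For Sv2c the 5 nearest were Rasl11a (0.974), Cdh22 (0.971), Fstl4 (0.964), Fndc9 (0.962) and Nptx2 (0.958). A choice by r over KA and SH libraries favours genes that differ as Sv2c does, so their logFC are not a separate result. All 5 had a positive logFC in neurons (1.25, 1.70, 1.26, 3.00 and 3.61) and in glia (1.88, 2.38, 1.90, 2.13 and 2.92); Fndc9 and Nptx2 were called in neurons, and Rasl11a, Cdh22, Fstl4 and Nptx2 in glia. For Slc17a6 the 5 nearest were less close: Hist1h1c (0.897), Sh3glb1 (0.872), Gins4 (0.815), Fbxl4 (0.815) and Pgp (0.805). The nearest gene was Dact3 for Sv2a (0.967), Rnf165 for Sv2b (0.995), Clstn2 for Syn1 (0.996), Opcml for Syn2 (0.995), Smyd3 for Syn3 (0.971), Cyp46a1 for Syp (0.993), Svop for Syt1 (0.996) and the vesicular zinc transporter gene Slc30a3 for Slc17a7 (0.996).

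Other genes of the presynaptic terminal gave the members their setting. Of 61 such genes, all tested, none was called between KA and SH in neurons or in glia at an FDR of 0.25, while other scalings, filters and tests without a block called 0 to 2 and 0 to 8. With the replicate block 2 rose and 4 fell in neurons, where 1.94% of all genes rose and 1.11% fell. In glia 4 rose and 11 fell with the block, where 3.47% of all genes rose and 4.17% fell. The median logFC was -0.03 in neurons and -0.27 in glia. In neurons against glia 54 were higher in neurons and 2 in glia (Syt6 and Dnm3), beside 18.6% and 10.9% of all genes.

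Among other vesicle membrane proteins, Synpr, a relative of synaptophysin typical of mossy fibre terminals, went from 400 ± 172 CPM in SH to 181 ± 26.4 CPM in KA neurons, with no overlap (logFC -1.14, standard error 0.42, block FDR 0.0544). Syt6 was low, at 5.08 ± 1.35 and 10.2 ± 4.80 CPM in neurons, and in glia at 7.63 ± 2.53 and 18.7 ± 6.96 CPM (logFC 1.30, standard error 0.46, block FDR 0.0663). Syt3, another synaptotagmin, had 38.2 ± 17.5 and 15.9 ± 7.32 CPM in SH and KA glia (logFC -1.27, standard error 0.43, block FDR 0.00562). Beside Synpr in neurons, the summed dentate granule cell markers were 747 to 1024 CPM in SH and 528 to 595 CPM in KA neurons. Of the 5, 4 lay below SH without overlap, as did 4.45% of all genes, and 1 of them was called (Calb1). Prox1, a defining marker, had a logFC of 0.09. The part of these markers in the result for Synpr was not tested.

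Of the other vesicular transporters, the zinc transporter gene Slc30a3 (logFC -0.42) and the monoamine transporter gene Slc18a2 (logFC 0.14) had the smallest p in neurons. In glia these were the acetylcholine transporter gene Slc18a3 (logFC 1.80, below 2 CPM in every library) and the glutamate transporter gene Slc17a8 (logFC 1.18). None of these was called there in either fit. With the block, 1 of the 5 genes of this list fell in glia. Among SNARE and fusion proteins, Doc2a, a calcium sensor of release, had a logFC of 0.92 in neurons and was not called. In glia the complexin gene Cplx1 had a logFC of -0.74 and fell with the block (FDR 0.0856), and Doc2b (logFC -0.72) was not called.

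Among active zone and Rab3 proteins, Rab3a, the vesicle GTPase, had 262 ± 11.5 CPM in SH and 150 ± 26.9 CPM in KA neurons, and 104 ± 9.61 and 45.4 ± 16.3 CPM in glia, with no overlap in either. Its logFC was -0.81 in neurons (block FDR 0.122) and -1.19 in glia (edgeR FDR 0.332, block FDR 0.00595). Cadps2, a priming factor of dense core vesicles, had 98.7 ± 28.9 and 44.6 ± 4.34 CPM in neurons (logFC -1.15, block FDR 0.0358), with no overlap. Unc13b, a priming factor of the Munc13 family, had 163 ± 79.0 CPM in SH and 381 ± 199 CPM in KA neurons, higher in KA in 3 of 3 pairs although the groups overlapped (logFC 1.22, standard error 0.52, edgeR FDR 1.00), and it rose with the block (FDR 0.00704). In glia its logFC was 0.69 (block FDR 0.17). Among vesicle recycling proteins 10 of 11 had a negative logFC in neurons and 11 of 11 in glia. Sncb, which encodes beta-synuclein, had 64.1 ± 1.98 and 39.6 ± 2.60 CPM in neurons (logFC -0.70, block FDR 0.462) and 19.6 ± 9.86 and 7.16 ± 3.83 CPM in glia (logFC -1.45, block FDR 0.0146). Amph (amphiphysin) in neurons had a logFC of -0.65 (block FDR 0.352), and Dnajc6 (auxilin) in glia a logFC of -1.14 (edgeR FDR 0.272, block FDR 0.0146).

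**Figure D5:**
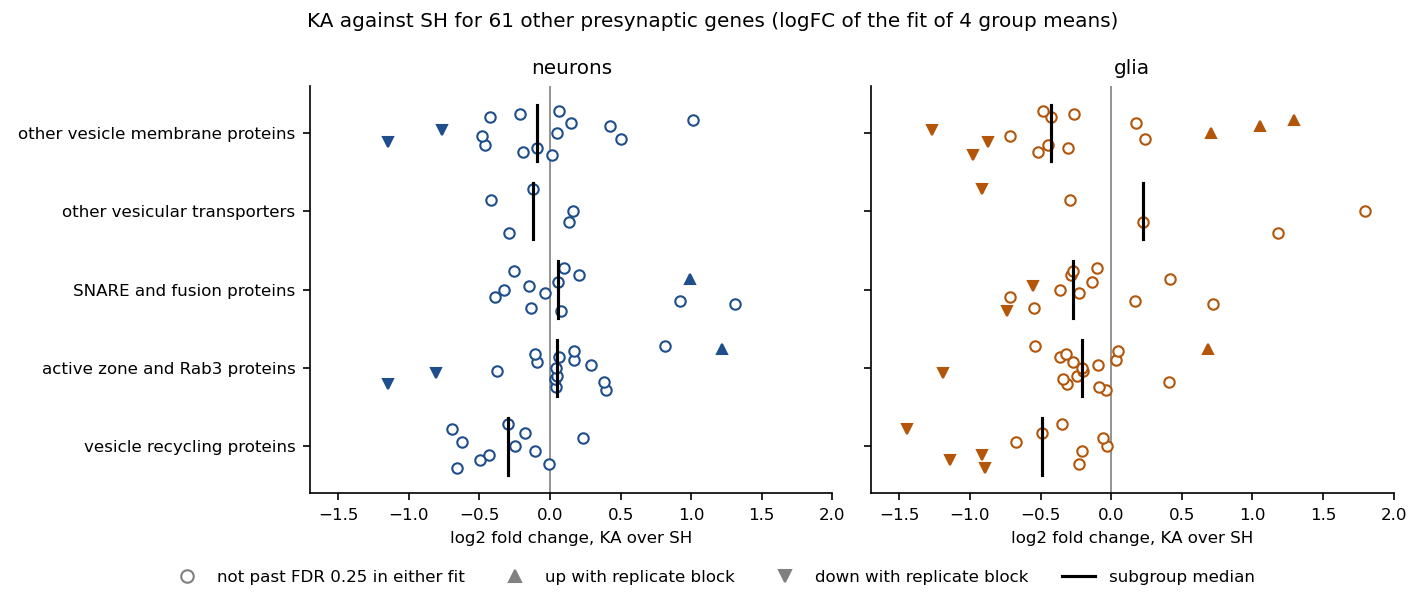
LogFC of KA over SH (horizontal axis, log2 scale) for each of 61 other presynaptic genes by subgroup, in neurons and glia; triangles are genes called with the replicate block and lines the medians of the subgroups. No gene passed an FDR of 0.25 without the block, and the recycling proteins lie at or left of 0 for 10 of 11 genes in neurons and 11 of 11 in glia.

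In neurons 1 of the 97 marker genes tested was called without the block, Calb1. Of all genes in neurons 0.34% were called without the block, and with it 1.94% rose and 1.11% fell. With the block 3 rose (2 astrocytic markers and Npy of the inhibitory neurons) and 8 fell: 2 dentate granule cell markers, and 1 each of the astrocytic, microglial, oligodendrocytic, OPC, neuronal (Nrgn) and thalamic (Ramp3) lists. The summed CA1 pyramidal cell markers were 303 to 409 CPM in SH and 281 to 291 CPM in KA neurons, and those of inhibitory neurons 344 to 672 and 515 to 568 CPM. In glia, 2 of 10 microglial, 1 of 10 astrocytic, 1 of 15 neuronal (Nrgn) and 1 of 5 dentate granule cell markers (Calb1) fell. With the block these counts were 3, 6, 2 and 2, and 1 astrocytic marker rose. Over all genes in glia 0.306% fell without the block, and 4.17% fell and 3.47% rose with it. The lists of endothelial cells, pericytes and inhibitory and thalamic neurons held no called gene in glia without the block, and with it Tek and Npy rose and Vtn and Plekhg1 fell. No gene of the lists of blood leukocytes, choroid plexus and CA1 and CA3 pyramidal cells was called in either cell type by either fit. Their part in the values of the members was not tested.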

How the data were processed

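mRNAseq libraries of NeuN+ and NeuN- nuclei were used (12 libraries, 3 per group); RRBS data were not used here. The authors trimmed reads with Trim Galore (version 0.4.3 per the labels), aligned them to mm10 with Rsubread and counted uniquely mapped reads per gene with featureCounts and GENCODE M16; the deposited values are raw counts. Default counting ignores strand and leaves out reads on more than 1 gene. Symbols and exons are from GENCODE M21 (GRCm38); 105 of 53379 genes without a symbol were left out.

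Genes were filtered with filterByExpr (minimum count 10, total 15), scaled by TMM and fitted with edgeR 4.0.16 (glmQLFit, legacy=TRUE) in R 4.3.3 as 4 group means over all 12 libraries, with Benjamini-Hochberg adjustment over 37598 genes. The study treated cell types separately; separate fits, the replicate block, other filters, scalings, tests (DESeq2 1.42.0) and single libraries left out were alternatives. Standard errors are logFC over the square root of F, and intervals use 8 residual degrees of freedom.

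Same-numbered KA and SH libraries correlated in their deviations from group means at 0.399, 0.264 and 0.551 in neurons and 0.457, 0.543 and 0.764 in glia. Libraries of unequal number ran from -0.502 to 0.142 in neurons. In glia replicates 1 and 2 also correlated across numbers, less strongly (0.222 and 0.349), while replicate 3 against them gave -0.671 to -0.407. The same-numbered values were taken as pairing, which the labels do not describe. Replicates differed from each other by far more than counting noise (chi-square per gene 15.7 to 102). Fits were tested on simulated data. Presynaptic genes were named if past the FDR, or among the 2 smallest p values of their subgroup in a cell type; 1 gene that this rule names is not reported here. The members, gene lists and motifs were chosen with earlier results of these data known. The pools are the replicates, so p values measure the spread between pools of different size. Figures used matplotlib 3.10.9.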

Additional observations from a re-analysis of the deposited data

Results flagged for a closer look

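In groups of 6 libraries of 1 cell type, 3 of 20 sets of values held a library far from the others by Dixon's criterion at its 95% level, which chance passes in about 1 of 20 groups. Syt1 was 1458.0 CPM in SH neurons replicate 3, and Slc17a7 was 2857.9 CPM in the same library, the neuronal library with the fewest genes with a count. Slc17a6 was 26.9 CPM in SH neurons replicate 1. All 3 lie in SH neurons, and none of these genes was called between KA and SH. No difference of the KA effect between neurons and glia passed the threshold for a member.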

How the results depend on the processing

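Sv2c kept a positive logFC in both cell types under every alternative run (2.31 to 2.87 in neurons, 2.09 to 3.76 in glia), while its call depended on the setting as given in the report; separate fits per cell type gave an FDR of 0.00358 in neurons and 0.147 in glia. The number of members called in neurons was 0 at an FDR of 0.05 and without all replicate 3 libraries, and 0 to 1 without single libraries. In glia it was 2 with at least 10 counts in every library, 4 with the replicate block, 4 and 3 with the block without pair 1 and pair 2, and 0 without both low-input libraries or without all replicate 3 libraries. The block changed no other member's call.

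The number of presynaptic genes called in neurons was 1 with upper quartile factors, 2 with at least 10 counts in every library, 1 by DESeq2, 2 in separate fits, 6 with the block, and 10 and 7 with the block without pair 1 and pair 2. In glia it was 6 with upper quartile factors, 8 with at least 10 counts in every library, 2 by the edgeR 4 quasi-likelihood method, 7 by DESeq2, 15 with the block, 1 for autosomes only, 4 with the neuronal list as a covariate, 0 to 2 without single libraries, and 17, 14 and 2 with the block without pairs 1, 2 and 3.

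Signs turned only for results that were not called. The neurons against glia logFC of Sv2a was -0.0657 with at least 10 counts in every library, -0.0564 without both low-input libraries and -0.15 to 0.35 without single libraries. In glia, Syn3 was 0.0749 in separate fits, and with the neuronal covariate Sv2b was 0.50, Syn1 0.54, Syn3 0.23, Syt1 0.12 and Slc17a7 0.65. With the block Slc17a6 in neurons was 0.0174, and 0.25 without pair 1; without pair 2 Slc18a2 in neurons was -0.0888 and Sv2b in glia 0.17; without pair 3 Slc17a7 in neurons was 0.10. Without all replicate 3 libraries Slc17a7 in neurons was 0.10 and the difference for Sv2c 0.67. Without single libraries the logFC in neurons ran from -0.11 to 0.23 for Sv2b, -0.0588 to 0.55 for Syn1, -0.13 to 0.37 for Syn3, -0.42 to 0.19 for Slc17a7, -0.20 to 0.29 for Slc17a6 and -0.0373 to 0.24 for Slc18a2. In glia it ran from -0.87 to 0.14 for Sv2b, -0.27 to 0.0622 for Syn3 and -1.37 to 0.0430 for Slc17a7. The difference between cell types ran from -1.21 to 0.25 for Sv2c, -0.0628 to 0.94 for Sv2b, -0.0447 to 0.58 for Syn2, -0.0146 to 0.48 for Syn3, -0.0152 to 0.77 for Syt1 and -0.25 to 1.16 for Slc17a7. The cause of these changes was not tested. With 3 pools per group, changes of about 1 on the log2 scale lie within the intervals of most members, and low counts limit Sv2c in SH glia (35 to 220 counts).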
